A study of Mus musculus with 2 samples.

Results

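Expression of annexin genes was followed in single interstitial cells from mouse ventricles after infarction, in 2 libraries, 1 per genotype. The 8 members, Anxa1, Anxa2, Anxa3, Anxa4, Anxa5, Anxa6, Anxa7 and Anxa11, were chosen by gene symbol among the 15181 genes that appear in any of the authors' comparison tables for 18 clusters and 4 fibroblast subclusters. The control library came from PostnMCM mice, which express a tamoxifen-inducible Cre from the Postn locus. The other came from mice of genotype Yapfl/fl;Wwtr1fl/+;PostnMCM, which add a floxed pair of Yap1 alleles and 1 floxed allele of Wwtr1 (encoding TAZ), and is labelled as depleted in myofibroblasts. Both genotypes carried the R26-eGFP reporter, were adults, received chow with 0.4 g/kg tamoxifen citrate for 6 days from the day of myocardial infarction (MI), and per the labels were collected 6 days after MI, while the study's methods give another day. Cre acts where Postn is active, chiefly in myofibroblasts, and is not aimed at the immune cells, although recombination was not measured in these tables. How many animals were pooled in each library is not given in the sources used here.

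Annexins are calcium-dependent proteins that bind negatively charged phospholipids. On rising calcium they move to membranes, where they help to reseal wounds, to organize the actin cortex and to guide vesicle traffic. Some act outside the cell: annexin A1 signals through formyl peptide receptors and dampens leukocyte recruitment, annexin A2 binds plasminogen at the cell surface together with S100a10, and annexin A5 covers phosphatidylserine on dying cells. After MI such dying cells, invading neutrophils and macrophages, and matrix-producing fibroblasts lie side by side.

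In the fibroblast cluster (cluster 5), 5 of the 8 members were listed and all 5 were lower in the library labelled Yap/Wwtr1-depleted: Anxa2 (-0.78), Anxa3 (-0.49), Anxa5 (-0.43), Anxa1 (-0.28) and Anxa4 (-0.28). These are the authors' deposited average log2 fold changes, in which a negative value is lower in the library labelled depleted. A cluster table holds only genes with a fold change of at least 0.25 on the log2 scale in either direction and a count in 25% or more of the cells from either library, and such a gene is called listed here. Of the genes listed in cluster 5, 56.7% were lower, and of all 16846 genes 2.04% were listed lower there. The 16846 genes include those with a count in too few cells of cluster 5 to be listed. The members listed had a count in 57.7% to 99.3% of control cells, so the 2.04% is not matched to their detection. In the immune clusters the members had no common direction. Over the 18 clusters there were 30 listings of a member, of 144 possible, of which 17 were lower and 13 higher. Among all genes 5.09% of possible listings were made and 52.3% of those were lower, so the family's split over all clusters lay near that of all genes. The 5.09% is not matched for detection either. Of the 30 listings, 6 passed the detection limit in the library with the higher share alone (Anxa4 and Anxa11 in cluster 17, Anxa6 in clusters 9, 10 and 15, and Anxa7 in cluster 18), so that their direction was bound up with the limit, and without them 15 were lower and 9 higher. Clusters 2, 4, 6 and 8 listed no member. With 1 library per genotype no difference could be set against a spread between replicates, so no value carries an error. The study gives the cells kept per library and an average depth. Cells and depth per cluster are not in the sources used here. Some shares moved in coarse steps, such as those of the members in cells labelled depleted of subcluster 4, which were 60%, 80%, 90% or 100%. In cells labelled depleted of cluster 17 they were 9.1%, 36.4%, 45.5% or 90.9%. In control cells they were 18.2% or 100% in cluster 18 and 9.1% or 36.4% in cluster 10.

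The 4 subcluster tables carry no such limits and give all 8 members, 32 values in all, of which 26 were below 0. With the limits of the cluster tables applied, 13 were lower and 0 higher. The median of the 32 values was -0.19. The plot of the family's fold changes shows the fibroblast columns in blue almost throughout and the immune columns in both colours.

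**Figure D1:**
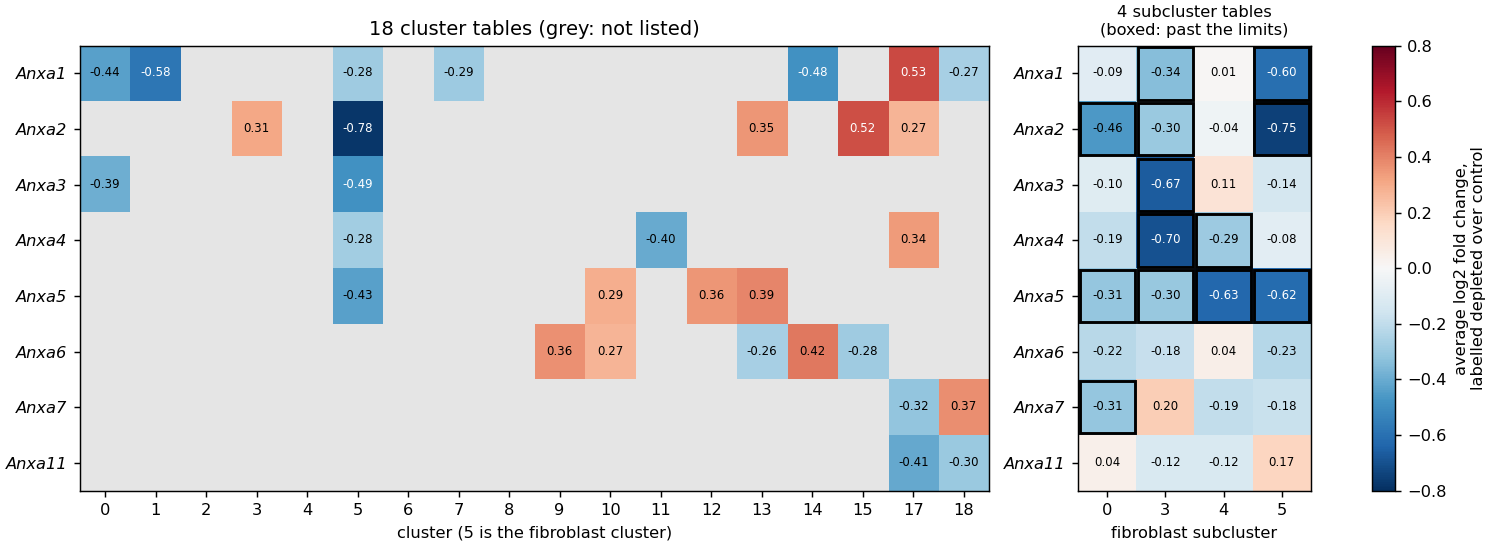
Average log2 fold change (library labelled depleted over control, colour and printed value) of the 8 annexin genes, in rows, in the 18 clusters (left, grey where a gene is not listed) and the 4 fibroblast subclusters (right, boxed where past the limits of 0.25 and 25% of cells). Cluster 5 holds 5 lower values and no higher one, and all 13 boxed subcluster values are lower.

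A check of the labels came before the members. Yap1 had a count in 46.2%, 23.3%, 57.5% and 30.4% of control cells in subclusters 0, 3, 4 and 5, and in 56.2%, 43.5%, 40% and 47.6% of cells labelled depleted, with fold changes of 0.07, 0.31, 0.04 and 0.26. Wwtr1 had a count in 81.4%, 93.3%, 80% and 100% of control cells and in 90.6%, 91.3%, 60% and 85.7% of cells labelled depleted. Its fold changes were 0.15, -0.30, -0.21 and -0.16, of which that of subcluster 3 was past the limits. Neither gene was listed in any cluster, and Yap1 was not lower by fold change in any subcluster, so the second library is called by its label throughout. By staining, the study reported markedly less nuclear Yap and Wwtr1 protein in GFP-positive myofibroblasts of this genotype. Counts of transcripts do not measure that protein. The collagen genes Col1a1, Col1a2 and Col3a1 and the proteoglycan gene Dcn had a count in 100% of cells of both libraries in all 4 subclusters, while the other 3 markers of the list were less widely detected, Pdgfra in 38.6% to 87% of control cells, Lum in 26.7% to 100% and Postn, the gene that drives the Cre, in 10% to 87%. Postn was at 87% in subcluster 5 and at 40% or less of control cells in the others, so the Cre driver's transcript was seen in a minority of cells there. In cluster 5, where the 5 listed annexins were lower, all 4 fibroblast markers listed were higher, Pdgfra at 1.12, Lum at 0.86, Dcn at 0.51 and Col3a1 at 0.33. Markers of other cells were also present there. The mean share of cells over 10 neutrophil markers fell from 32.6% to 15.3%, 31.7% to 17.4%, 31.8% to 17% and 26.1% to 16.7% in subclusters 0, 3, 4 and 5, and S100a8 alone had a fold change of -3.96 in subcluster 0. The mean share over 10 macrophage markers went from 48.4% to 31.6%, 42.3% to 38.2%, 46.8% to 35% and 36.9% to 27.1% in the same order. By fold change, however, macrophage markers were higher in some of these subclusters, with 6 of 7 detected ones higher and 0 lower in subcluster 3 (median 1.22, Lyz2 at 1.75 and C1qa at 1.45) and 3 of 4 higher and 0 lower in subcluster 5 (median 0.84). In subcluster 4 it was the reverse, with 4 of 7 lower and 0 higher (median -0.42), and subcluster 0 was split, with 3 of 7 lower and 2 higher. Over 5 T cell markers it was 6.08% to 9.36% in control cells and 10% to 21.7% in cells labelled depleted, and over 4 B cell markers 2.5% to 5.4% and 2.4% to 5%. The part of these other transcripts in the annexin values was not tested.

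The transcription factors that YAP and TAZ work with, the TEAD proteins, bind DNA with the core letters GGAATG. RefSeq promoters (250 bases before to 50 after the start, mouse build GRCm38.p6) were at hand for 6 of the 8 members, not for Anxa3 and Anxa6, and some members had more than 1. The letters occurred on either strand in 1 of the 6 members, Anxa1, and in 14.7% of all 32851 promoters. The promoters of Anxa1, which holds them, and of Anxa2 and Anxa5, the members lower past the limits in the most subclusters, are shown 5′ to 3′ on the gene's strand. Capitals mark the match, which in Anxa1 is the reverse complement CATTCC and starts at position -236 from the start site.
Anxa1, chr19:20390622-20390921, minus strand: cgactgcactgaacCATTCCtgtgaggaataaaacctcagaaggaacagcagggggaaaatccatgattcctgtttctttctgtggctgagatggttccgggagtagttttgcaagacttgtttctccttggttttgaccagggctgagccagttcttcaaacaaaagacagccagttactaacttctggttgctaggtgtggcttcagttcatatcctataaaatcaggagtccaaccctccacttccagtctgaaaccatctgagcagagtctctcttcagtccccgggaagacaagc
Anxa2, chr9:69453433-69453732, plus strand: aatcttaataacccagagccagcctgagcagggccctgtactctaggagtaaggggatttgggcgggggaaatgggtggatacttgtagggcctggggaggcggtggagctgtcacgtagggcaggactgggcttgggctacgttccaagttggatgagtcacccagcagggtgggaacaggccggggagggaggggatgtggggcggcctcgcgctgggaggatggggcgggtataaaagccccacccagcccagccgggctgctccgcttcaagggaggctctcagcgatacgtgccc
Anxa5, chr3:36475838-36476137, minus strand: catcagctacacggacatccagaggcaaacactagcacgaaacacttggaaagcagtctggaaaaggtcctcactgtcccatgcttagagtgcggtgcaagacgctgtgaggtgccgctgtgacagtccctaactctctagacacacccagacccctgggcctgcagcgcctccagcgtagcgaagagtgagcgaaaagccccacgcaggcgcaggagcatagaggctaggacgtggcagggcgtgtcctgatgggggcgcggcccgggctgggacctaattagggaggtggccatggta
The stretch of Anxa1 was 47.3% G or C with 3 CG pairs, against 63.7% with 13 pairs in Anxa2 and 60.3% with 16 in Anxa5. A match is a run of letters and not a binding site, and its absence says only that these letters are not in this window.

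Anxa2 (chromosome 9, 69360542 to 69399077, plus strand, on GRCm39 as are all gene positions here, and protein-coding as are all 8 members) is the annexin that joins S100a10 at the plasma membrane and binds plasminogen and its activator tPA. In fibroblast cluster 5 it had a count in 99.3% of control cells and 94.7% of cells labelled depleted, with a fold change of -0.78. This was the lowest value of the family in any cluster. All cells of both libraries had a count of it in each subcluster, and the fold changes in subclusters 0, 3, 4 and 5 were -0.46, -0.30, -0.04 and -0.75. With every cell counted, the share could not register a difference there. Of the genes detected in at least 25% of cells, 2.11%, 10.8%, 41.3% and 3.14% lay below it in subclusters 0, 3, 4 and 5.

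Outside fibroblasts Anxa2 went the other way wherever it was listed. In macrophage cluster 13 its share was 100% in both libraries and the fold change 0.35. Macrophage cluster 3 gave 0.31, although the share of cells went from 90.4% to 87.4%. In dendritic cluster 17 the share rose from 80% to 90.9% with a fold change of 0.27, and in the unidentified cluster 15 from 43.8% to 54.5% with 0.52. Anxa2 was thus listed lower in 1 cluster, the fibroblasts, and higher in 4. The background of lower listings in those 4 tables was 39.6% in cluster 3, 40.9% in cluster 13, 52.7% in cluster 15 and 58.6% in cluster 17.

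Anxa5 (chromosome 3, 36503072 to 36530126, minus strand), whose protein lines membranes that expose phosphatidylserine, was the member lower past the limits in all 4 subclusters. Its share in cluster 5 was 98.7% in control cells and 95.2% in cells labelled depleted, with a fold change of -0.43. Every cell of the 4 subclusters had a count of it in both libraries. The fold changes were -0.31, -0.30, -0.63 and -0.62 in subclusters 0, 3, 4 and 5. In subcluster 4, where Anxa1 and Anxa2 were close to 0, Anxa5 lay below all but 2.32% of the genes of that detection. In subclusters 0, 3 and 5 the percent of genes below it was 6.15, 10.4 and 5.17.

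In immune cells Anxa5 was listed 3 times and was higher each time. Macrophage cluster 12 showed the widest step in share, from 69.8% to 86.1%, with a fold change of 0.36. In macrophage cluster 13 the share was 96.8% in control and 97.2% in the library labelled depleted, at 0.39. T cell cluster 10, which the study describes as mostly from the library labelled depleted, had 36.4% and 37.6% with 0.29. In cluster 12, where Anxa5 was the only member listed, 53.1% of listed genes were lower.

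Anxa1 (chromosome 19, 20350792 to 20368374, minus strand) encodes the glucocorticoid-induced annexin that is released by leukocytes and acts on the receptor Fpr2. It was the member listed in the most clusters, 7, and was lower in 6 of them. In neutrophil cluster 1 its share was 97.1% in control cells and 91.5% in cells labelled depleted, with a fold change of -0.58. This was its lowest cluster value. Of the genes listed in that cluster 41.3% were lower. In the other neutrophil cluster, 18, all cells of both libraries had a count and the fold change was -0.27. Macrophage cluster 0 went from 80.5% to 69.3% with -0.44.

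In lymphoid cells Anxa1 was listed in 2 clusters and was lower in both. In natural killer cluster 14 the share fell from 65.8% to 38.5% of cells with a fold change of -0.48, the widest step in share for this gene. Of the marker lists, Lyz2 (-0.72), C1qb (-0.65), Cd2 (-0.37) and Col3a1 (-0.30) were listed there, all lower, and no neutrophil marker was. T cell cluster 7 went from 41.4% to 31.4% with -0.29, in a table where 70.8% of listed genes were lower. Neutrophil transcripts were lower in these T cells too, S100a8 at -1.27 and S100a9 at -1.56, with shares falling from 63.6% to 40.3% and from 67.7% to 46.5%. Dendritic cluster 17 was the exception, with a share of 75% in control cells, 90.9% in cells labelled depleted and a fold change of 0.53.

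Fibroblasts carried Anxa1 about as widely as neutrophils did. In cluster 5 the share was 96.3% in control cells and 96.8% in cells labelled depleted with a fold change of -0.28, so share and amount did not move together. In subclusters 0, 3 and 4 every cell of both libraries had a count, with fold changes of -0.09, -0.34 and 0.01. In subcluster 5 the share was 91.3% and 95.2% and the fold change -0.60, with 5.46% of genes below it. Anxa1 is abundant in neutrophils, whose markers were lower in the same fibroblasts. Of 11 neutrophil markers cluster 5 listed 2, S100a8 at -1.89 and S100a9 at -2.22, and both were at 32.6% to 49.7% of control cells and 5.9% to 9.1% of cells labelled depleted. Within subclusters 0, 3, 4 and 5 the number of neutrophil markers lower past the limits was 3 of 4 detected (with 1 higher), 4 of 5, 4 of 4 and 0 of 2, where 9.87%, 15.1%, 19.5% and 23.5% of all genes were lower, beside Anxa1 at -0.09, -0.34, 0.01 and -0.60. In subcluster 5 the shares of the 2 detected ones still fell, S100a8 from 78.3% to 71.4% and S100a9 from 91.3% to 38.1% of cells. Their fold changes were 0.13 and 0.10, and among the markers under the detection limit the shares of Csf3r, Cxcr2 and Ngp rose.

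**Figure D2:**
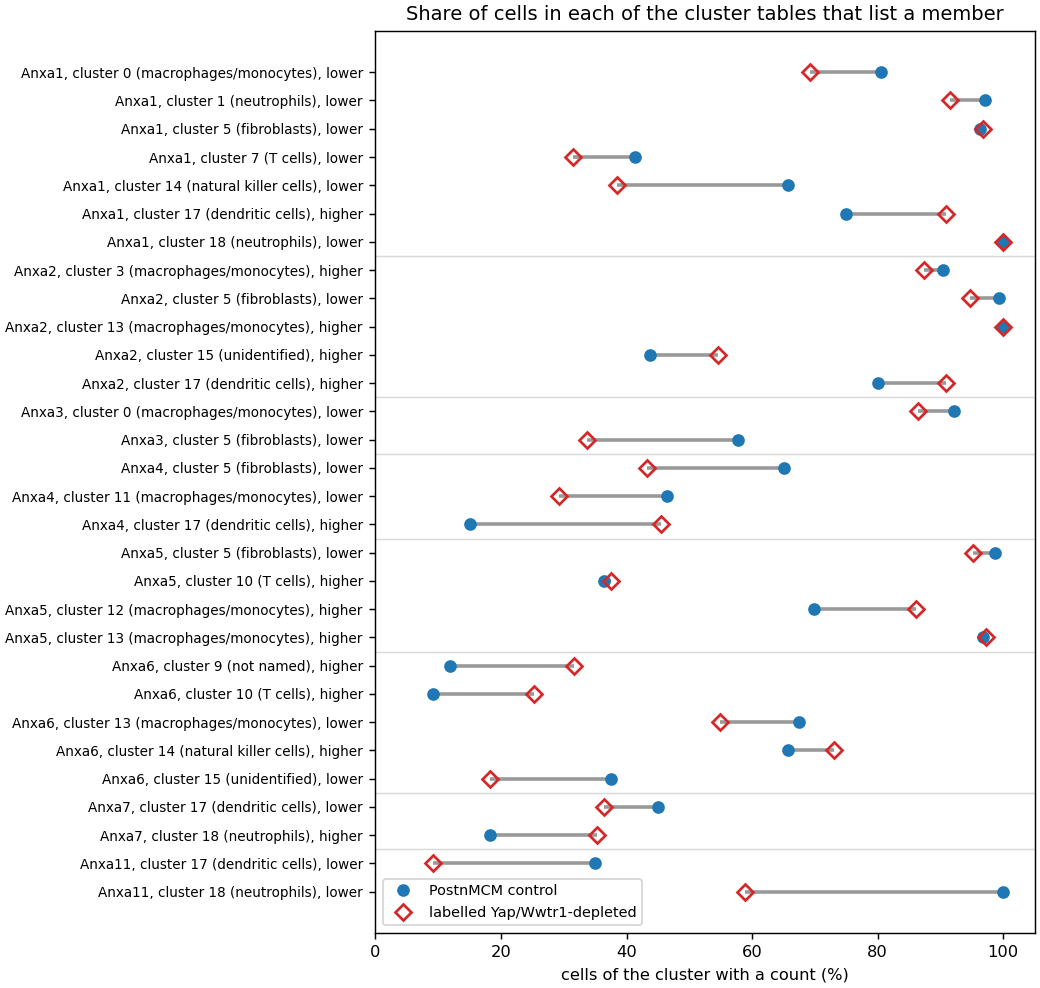
Percent of cells with a count (x axis) of each annexin gene in each cluster that lists it, in the control library (filled circles) and the library labelled depleted (open diamonds), with the direction of the fold change in the row name. The longest bars are those of Anxa11 in cluster 18, Anxa4 in cluster 17 and Anxa1 in cluster 14. Shares moved in coarse steps in control cells of cluster 18 and cells labelled depleted of cluster 17. Anxa1 in cluster 5 and Anxa2 in cluster 3 moved against their fold change.

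Anxa3 (chromosome 5, 96940544 to 96993828, plus strand) is a small annexin found in neutrophil granules and in several other cells. It was listed in 2 clusters and was lower in both. Macrophage cluster 0 had it in 92.2% of control cells and 86.5% of cells labelled depleted, with a fold change of -0.39, and 38.4% of the genes listed there were lower. Neutrophil markers were lower there too, the 2 listed at 54.8% to 68.3% of control cells and 20.3% to 34.3% of cells labelled depleted. In fibroblast cluster 5 the share of Anxa3 fell from 57.7% to 33.7% with -0.49. In subcluster 3 the share was 86.7% and 87%, nearly equal, while the fold change was -0.67. Only 0.921% of the genes of that detection lay below it. The other subclusters gave 86.9% and 87.5% with -0.10 in subcluster 0, 80% and 90% with 0.11 in subcluster 4, and 95.7% and 90.5% with -0.14 in subcluster 5, all within the limits. Subcluster 3 thus stood apart from the others for this gene.

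Anxa4 (chromosome 6, 86713675 to 86771064, minus strand), a membrane-binding annexin best known from epithelia, shared this feature of subcluster 3. It was found in 96.7% of control cells and 65.2% of cells labelled depleted there, with a fold change of -0.70, and 0.765% of genes lay below it. This was the widest step in share of any member in a subcluster. Subcluster 4 had shares of 87.5% and 80% with -0.29, subcluster 0 had 93.1% and 84.4% with -0.19, and subcluster 5 had 78.3% and 85.7% with -0.08. All 4 values were below 0 and those of subclusters 3 and 4 were past the limits. In cluster 5 as a whole the share went from 65.1% to 43.3% at -0.28.

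Immune cells split for Anxa4. In macrophage cluster 11 its share fell from 46.5% to 29.2% with a fold change of -0.40. That table listed 53.5% of its genes as lower, among them 8 of 11 neutrophil markers, which had a count in 27.8% to 63.9% of control cells and 4.2% to 31.2% of cells labelled depleted. The cluster's own macrophage markers were lower too, 8 of 10 with none higher, such as Lyz2 at -2.15 with a share falling from 76.4% to 45.8%. The part of either set in the value of Anxa4 was not tested. In dendritic cluster 17 the share of Anxa4 rose from 15% to 45.5% with 0.34, so that it crossed the detection limit through the library labelled depleted alone.

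Anxa6 (chromosome 11, 54869654 to 54924305, minus strand), a large annexin with a duplicated core that links membranes to the cytoskeleton and joins repair caps, was listed in 5 clusters and in both directions. Natural killer cluster 14 went from 65.8% to 73.1% of cells with a fold change of 0.42, in a table where 49.1% of listed genes were lower. In T cell cluster 10 the share rose from 9.1% to 25.3% with 0.27, and in cluster 9, which has no name in the study, from 11.8% to 31.7% with 0.36. The study describes clusters 9 and 10 as mostly from the library labelled depleted. Their tables listed 63.7% and 46.3% of genes as lower. Macrophage cluster 13 went from 67.4% to 54.9% with -0.26 and the unidentified cluster 15 from 37.5% to 18.2% with -0.28. Anxa6 was thus higher in 3 clusters and lower in 2, but in clusters 9, 10 and 15 it passed the detection limit in the library with the higher share alone. In the other 2 it was higher in natural killer cells, where Anxa1 was lower, and lower in macrophages.

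In fibroblasts Anxa6 stayed within the limits. Its shares in control cells and cells labelled depleted were 93.8% and 90.6% in subcluster 0, 96.7% and 100% in subcluster 3, 95% and 100% in subcluster 4, and 100% and 95.2% in subcluster 5. The fold changes were -0.22, -0.18, 0.04 and -0.23 in that order. Cluster 5 did not list it.

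Anxa7 (chromosome 14, 20505328 to 20530201, minus strand) encodes synexin, which promotes membrane fusion during secretion. It was past the limits in subcluster 0, where the share went from 93.8% to 84.4% with a fold change of -0.31 and 6.03% of genes lay below it. Subcluster 3 gave 76.7% and 87% with 0.20, subcluster 4 gave 80% in both with -0.19, and subcluster 5 gave 78.3% and 81% with -0.18. In neutrophil cluster 18 the share of Anxa7 rose from 18.2% to 35.3% with 0.37, and in dendritic cluster 17 it fell from 45% to 36.4% with -0.32. Its directions in these 2 immune clusters were opposite, but in cluster 18 it passed the detection limit in the library labelled depleted alone.

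Anxa11 (chromosome 14, 25842547 to 25887229, plus strand), which takes part in cytokinesis and in carrying RNA granules on lysosomes, had no subcluster value past the limits. Its shares in control cells and cells labelled depleted were 62.1% and 62.5% in subcluster 0, 73.3% and 69.6% in subcluster 3, 57.5% and 60% in subcluster 4, and 30.4% and 47.6% in subcluster 5, with fold changes of 0.04, -0.12, -0.12 and 0.17. In control cells of each subcluster it was the least widely detected member. Both of its listings were lower and lay outside fibroblasts. In neutrophil cluster 18 its share fell from 100% to 58.8% with a fold change of -0.30, in a table with 61.9% of genes lower, and in dendritic cluster 17 from 35% to 9.1% with -0.41, where the control library alone passed the detection limit.

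Of the annexin genes that are not members, Anxa8 was at hand with values above the detection limit. In cluster 5 its share went from 35.2% to 18.2% with -0.30. Its share was also lower in all 4 subclusters, from 63.4% to 56.2%, 60% to 39.1%, 62.5% to 50% and 17.4% to 0% in subclusters 0, 3, 4 and 5, while its fold changes there were -0.14, 0.32, 0.06 and -0.48. The last is under the detection limit. In subcluster 3 share and fold change of Anxa8, an annexin with anticoagulant activity like annexin A5, went in opposite directions.

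Read by subcluster, the family was lowest in subcluster 3. There 5 of 8 members were lower past the limits (Anxa1, Anxa2, Anxa3, Anxa4 and Anxa5), against 15.1% of the 9015 genes detected in at least 25% of cells, and the median over the members was -0.30 against -0.0066 over those genes. In subcluster 0 the count was 3 of 8 (Anxa2, Anxa5 and Anxa7) against 9.87% of 8490 genes, with medians of -0.21 and 0.015. Subcluster 5 had 3 of 8 (Anxa1, Anxa2 and Anxa5) against 23.5% of 8349 genes, with medians of -0.20 and -0.011. In subcluster 4 the 2 of 8 (Anxa4 and Anxa5) lay near the 19.5% of 9130 genes, with medians of -0.08 and 0.034. No member was higher past the limits in any of them, while 12.5%, 13.8%, 25.2% and 20.3% of genes were in subclusters 0, 3, 4 and 5.

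Most annexin genes are widely detected, and the background of such genes was higher. Among genes detected in at least 90% of cells, 16.8%, 17.9%, 26.6% and 28.3% were lower past the limits in subclusters 0, 3, 4 and 5. Not all members are of that kind, since Anxa11 was at 73.3% or less of cells. The family's 3, 5, 2 and 3 of 8 are a description beside these shares, with no test. The study describes subclusters 0, 2 and 4 as mostly control cells, subcluster 1 as mostly cells labelled depleted, and subclusters 3 and 5 as holding both. Subclusters 1 and 2 were not analysed here, so the 13 lower and 0 higher values describe the cells labelled depleted outside subcluster 1. The value of cluster 5 mixes the makeup of the fibroblasts with the level inside each subcluster, and the 2 cannot be told apart there.

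**Figure D3:**
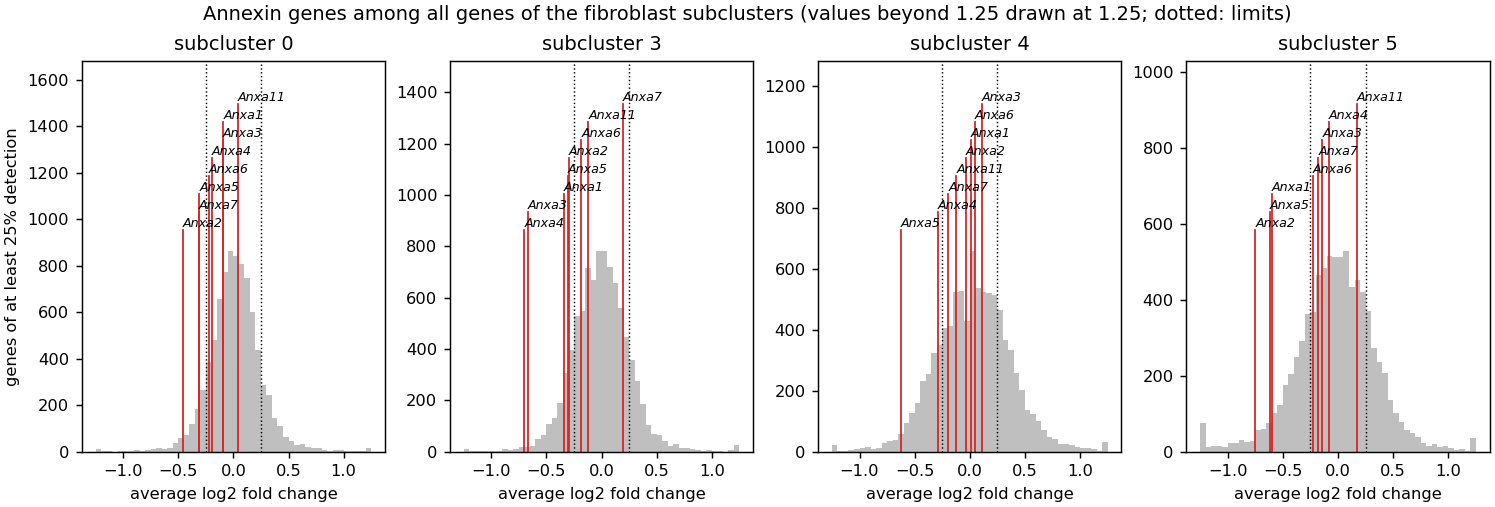
Average log2 fold change (x axis) of all genes detected in at least 25% of cells (grey, number of genes on the y axis) in the 4 fibroblast subclusters, with the 8 annexin genes as red lines whose heights only separate the names and the limits dotted. The members' median lies at -0.21, -0.30, -0.08 and -0.20 in subclusters 0, 3, 4 and 5.

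Shares of cells told less than amounts. Among the 13 subcluster values past the limits the share was equal in both libraries in 8, moved with the fold change in 3 and against it in 2, which were Anxa3 in subcluster 3 and Anxa1 in subcluster 5. Among the 30 cluster listings it moved with the fold change in 26, against it in 2, and was equal in 2. Of the 8 equal ones, all were at 100% in both libraries, where a share says nothing of a difference.

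**Figure D4:**
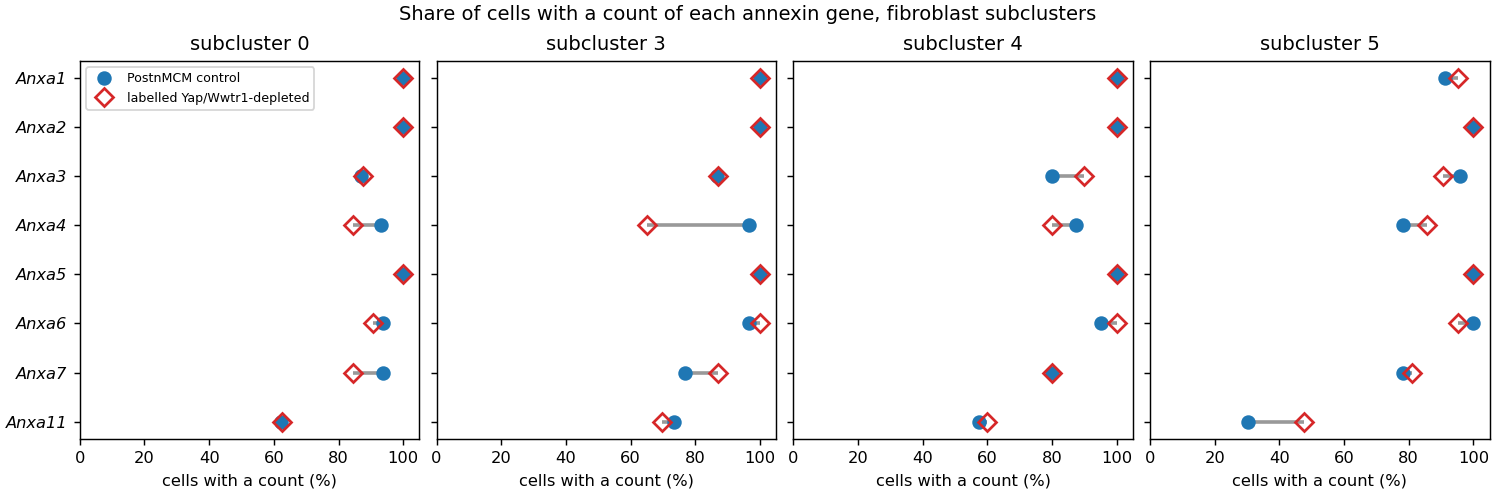
Percent of cells with a count (x axis) of each annexin gene in the fibroblast subclusters, in the control library (filled circles) and the library labelled depleted (open diamonds). Anxa2 and Anxa5 sit at 100% in both libraries throughout, and the widest step is that of Anxa4 in subcluster 3, from 96.7% to 65.2%.

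Genes that work with annexins were followed from lists of known partners. The 4 S100 proteins that bind annexins (S100a4, S100a6, S100a10 and S100a11) had 36 lower and 7 higher listings over the 18 clusters, where 52.3% of the listings of all genes were lower, the share that the other lists are set beside as well. Such a fall was not particular to these genes, since neutrophil markers had 36 lower and 4 higher listings and macrophage markers 27 and 10, with S100a9 and Lyz2 each lower in 12 of 13 clusters. The part of those transcripts in the S100 values was not tested. S100a10, the partner of annexin A2, was lower in all 11 clusters that listed it, from -0.26 in cluster 18 to -1.11 in cluster 17. Its fold change was -0.73 in fibroblast cluster 5 and -1.15 in subcluster 5, beside -0.78 and -0.75 for Anxa2. In dendritic cluster 17, where S100a10 was at its lowest, Anxa2 was higher at 0.27. The pair thus moved together in fibroblasts and apart in dendritic cells, the only clusters that listed both.

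S100a11, which binds annexin A1, was listed in 12 clusters, lower in 10 and higher in 2. Anxa1 and S100a11 were both listed in 6 clusters (0, 1, 5, 7, 14 and 18) and both were lower in all 6. The size differed, as S100a11 was at -1.06 in macrophage cluster 0 beside -0.44 for Anxa1, and at -0.29 in neutrophil cluster 1 beside -0.58. S100a4, higher in subcluster 5 at 0.95, went against S100a10 there. S100a6, a partner of annexin A11, was higher where Anxa11 was lower, at 0.91 in neutrophil cluster 18 and 0.30 in dendritic cluster 17. With Anxa2, S100a6 shared the direction in both clusters that listed the pair (5 and 17). S100a4 shared it in clusters 3 and 17 and went against it in cluster 15.

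The annexin A1 receptor Fpr2 was listed in 4 clusters and was higher in all, at 0.27 and 0.26 in macrophage clusters 0 and 3 and 0.52 and 0.34 in neutrophil clusters 1 and 18. In 3 of these (0, 1 and 18), the clusters that listed both, Anxa1 was lower. In clusters 0 and 3 Fpr2 passed the detection limit in the library labelled depleted alone, at 29.5% and 26% of cells. In cluster 18 its share fell from 100% to 88.2% against the fold change. Centring on the median listed gene turned Fpr2 to -0.0107 and -0.0124 in clusters 0 and 3, and Anxa1 to 0.0234 in cluster 18. No listed gene lies within 0.25 of 0, so that median is near the limit by construction and these turns tell nothing of direction. Fpr3 was listed in no cluster. Fpr1 was listed in cluster 1, at 0.40. Both receptors had a count in at most 13% of cells of either library in every fibroblast subcluster, under the detection limit. The 6 glucocorticoid-induced genes, a group to which Anxa1 itself is usually counted, had 25 higher and 4 lower listings, against 52.3% lower over all genes. Tsc22d3, which encodes the glucocorticoid-induced leucine zipper GILZ, was higher in 10 of the 11 clusters that listed it, and in 4 of the 5 that listed both genes Anxa1 was lower. Its value in subcluster 3 was 0.65, and that of Dusp1, a phosphatase of the same list, was 0.83. In subcluster 5, where Anxa1 was at -0.60, 3 of the 5 detected genes of this list were lower and 1 higher, with Fkbp5 at -0.64 and Dusp1 at -0.48, so there the list and Anxa1 were lower together. In that subcluster 23.5% of all genes were lower and 20.3% higher.

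**Figure D5:**
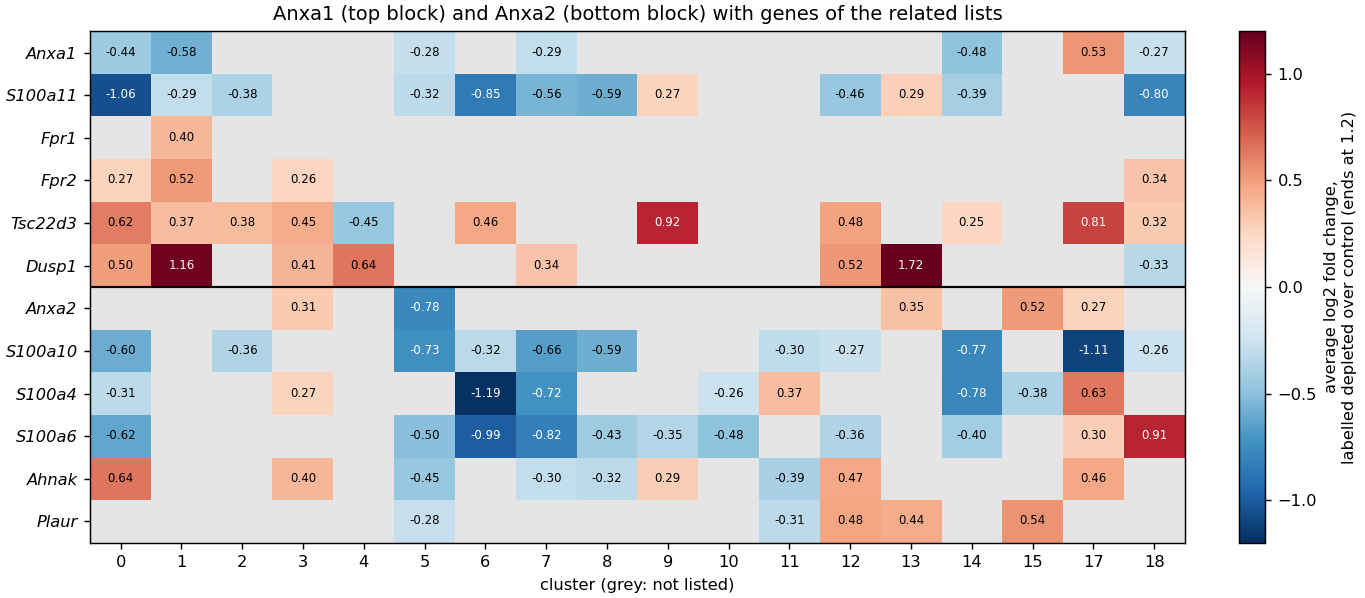
Average log2 fold change (colour and printed value, colour scale ending at 1.2) in the 18 clusters for Anxa1 with S100a11, its receptors and glucocorticoid-induced genes (top block) and for Anxa2 with S100 proteins, Ahnak and Plaur (bottom block), grey where not listed. Anxa1 and S100a11 are lower together in 6 clusters, while Fpr2 is higher in each of its 4.

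The plasminogen system, which annexin A2 serves as a surface receptor, had 3 lower and 6 higher listings, against 52.3% lower over all genes. Plaur, the urokinase receptor, was listed with Anxa2 in clusters 5, 13 and 15 and shared its direction each time, at -0.28, 0.44 and 0.54. In subcluster 5 its share fell from 60.9% to 4.8% with a fold change of -1.10. Serpine2, which encodes the protease inhibitor nexin-1, was at 1.35 there, with a share rising from 47.8% to 85.7%. These genes thus had opposite directions in the subcluster where Anxa2 was at -0.75.

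Genes of plasma membrane repair had 15 lower and 8 higher listings, beside 52.3% lower over all genes. Ahnak, a giant scaffold protein that binds the annexin A2 complex, shared the direction of Anxa2 in the 3 clusters that listed both, at 0.40 in cluster 3, -0.45 in cluster 5 and 0.46 in cluster 17. In subcluster 5, 6 of 10 detected genes of this list were lower and 0 higher, among them Ahnak at -1.14 and Cav1, the caveolar coat gene, at -1.18 with a share falling from 82.6% to 23.8%. Among all genes 23.5% were lower and 20.3% higher there. In subcluster 4, by contrast, 1 of 9 was lower and 4 were higher, beside 19.5% and 25.2% of all genes. The annexins themselves were lower past the limits in 3 and 2 of 8 in these subclusters.

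The genes that expose or recognize phosphatidylserine, the lipid bound by annexin A5, had 4 lower and 11 higher listings, against 52.3% lower over all genes. Ano6, a scramblase that exposes the lipid, was listed in 5 clusters, lower in 2 and higher in 3. It was higher in subcluster 4 at 0.59, where Anxa5 was at -0.63. Gas6, a bridge between the lipid and the receptors Axl and Mertk, was at -0.81 in subcluster 4 and -0.40 in cluster 5. Over the list, 4 of 8 detected genes were lower and 1 higher in subcluster 5, and 1 of 8 was lower and 4 higher in subcluster 4, against 23.5% lower and 20.3% higher of all genes in the former and 19.5% and 25.2% in the latter.

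For members listed in at least 4 clusters, the genes of most similar pattern were found by the number of cluster tables listing both in the same direction, less those in opposite directions, over the number listing either. For Anxa1 these were Anp32a and Ppia at 0.625 and Ndufa8 at 0.571, a value that 4 genes reached. For Anxa2 they were Ap2b1, Ergic1 and Pid1, each at 0.6 with 3 shared tables of 5. Anxa6 had Zfp148 at 0.667 and Chordc1 and Elf2 at 0.6, and 8 genes reached that value, but 3 of the 5 listings of Anxa6 passed the detection limit in 1 library alone. For Anxa5 the closest genes reached 0.5 with 2 shared tables of 4, which 25 genes reached, with Arl4a, Baz2b and Cat earliest in the alphabet. The tables share their 2 libraries, so these values are a description.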

How the data were processed

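Single-cell RNA libraries (10x Chromium, 3′ chemistry V3.1) of FACS-sorted viable interstitial cells were made from 1 control and 1 labelled depleted group. Per the labels and methods, the authors ran Cell Ranger 6.1.1 on GRCm39 with reporter sequences, kept both libraries at their own depth, and in Seurat applied SCTransform with the mitochondrial fraction regressed out. They clustered the cells, and normalized and clustered the fibroblasts again alone, so that levels are not compared between cluster 5 and its subclusters. No doublet caller is named in the sources used here, so doublets may remain.

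The fraction of cells that the authors deposited counts cells of a library whose corrected count exceeds 0, given here in percent. The deposited average log2 fold change is log2 of the mean corrected count plus 1, labelled depleted minus control, which understates the change of low genes. The authors' p-value for each gene, raw and adjusted (Wilcoxon over cells, Bonferroni over genes), was used in 1 alternative only, since cells are not replicates. Both limits of the cluster tables (0.25 and 25%) were checked on the files. Not analysed here were cluster 16 and subclusters 1 and 2 of the fibroblasts. Cluster names follow the study.

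Counts, medians, percent of genes called, marker shares and co-listings were computed with Python 3.11.15, pandas 2.3.3 and numpy 2.4.6, tested on simulated data, with figures in matplotlib 3.10.9. No test of genotype was made. All 8 members were named in every table that held them. From each partner list the gene listed in the most clusters, both genes of largest size in a subcluster and those sharing a cluster table with their annexin were named, the last chosen after their values were seen. A result of the plasminogen list that this rule names is not reported here. The members and lists were chosen with earlier results of these data known. Alternatives changed the size and detection limits, used the adjusted p, centred the fold change, took shares of cells in its place, or left out clusters 6, 9, 10 and 15. Gene positions are from GENCODE on GRCm39 and promoters from RefSeq on GRCm38.p6.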

Additional observations from a re-analysis of the deposited data

Results flagged for a closer look

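In 6 of the 8 members the fold change had opposite directions in different clusters, and none of these differences between clusters was tested, as each cluster holds 1 library per genotype. With 52.3% of all listings lower, both directions in 1 gene carry little weight, and the share of all genes showing both was not counted. Anxa1 was at -0.58 in neutrophil cluster 1 and 0.53 in dendritic cluster 17. Anxa2 was at -0.78 in fibroblast cluster 5 and 0.52 in the unidentified cluster 15. Anxa4 ranged from -0.40 in macrophage cluster 11 to 0.34 in dendritic cluster 17, and Anxa5 from -0.43 in fibroblast cluster 5 to 0.39 in macrophage cluster 13. Anxa6 was at -0.28 in cluster 15 and 0.42 in natural killer cluster 14. Anxa7 was at -0.32 in dendritic cluster 17 and 0.37 in neutrophil cluster 18. The values of Anxa4 in cluster 17, Anxa6 in cluster 15 and Anxa7 in cluster 18 come from genes that passed the detection limit in the library with the higher share alone, which ties their direction to the limit. Without listings of that kind Anxa4 and Anxa7 were only lower, and Anxa6 still had both directions.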

How the results depend on the processing

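No paired analysis was possible because there was 1 library per genotype. Over the cluster tables, 17 lower and 13 higher listings became 2 and 2 at a size of 0.5 and 0 and 0 at a size of 1. At 50% detection 12 lower and 8 higher listings were left, and 7 and 0 with an authors' adjusted p-value below 0.05. Centring gave 16 and 14, shares of cells 16 and 12, and leaving out clusters 6, 9, 10 and 15 gave 16 and 9. Detection of 25% in both libraries, an alternative chosen after seeing the data, gave 15 and 9. In the subclusters 13 lower and 0 higher became 6 lower at a size of 0.5, and 1 lower and 1 higher by the log2 ratio of shares, which is 0 where every cell has a count. Taken from shares, 4 values past the limits changed direction: Anxa2 in cluster 3 to -0.0487, Anxa1 in cluster 5 to 0.0075, Anxa3 in subcluster 3 to 0.0050 and Anxa1 in subcluster 5 to 0.0603. Centring turned 1, Anxa1 in cluster 18, to 0.0234, where the median listed gene was at -0.29. No listed gene lies within 0.25 of 0, so the median listed gene of a cluster is near the limit by construction. Centring the cluster listings is therefore not an informative check. With no replicates and an unknown number of cells per cluster, the members' values cannot be told from variation between libraries.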

Other observations

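Dendritic cluster 17 listed 5 of the 8 members, in both directions. It listed 1914 genes in all, against 605 in fibroblast cluster 5, which also listed 5 members. Anxa1, Anxa2 and Anxa4 were higher at 0.53, 0.27 and 0.34, and Anxa7 and Anxa11 were lower at -0.32 and -0.41, in a table that listed 58.6% of its genes as lower. Of these, Anxa4 and Anxa11 passed the detection limit in the library with the higher share alone. S100a8 and S100a9, markers of neutrophils, were higher in the same table, at 1.17 and 0.68, although their shares of cells fell from 25% to 9.1% and from 50% to 27.3%. The macrophage gene Lyz2 was lower at -1.10.

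By cell type, the 5 macrophage and monocyte clusters held 4 lower and 4 higher listings of a member, the neutrophil clusters 3 and 1, the T cell clusters 1 and 2, the natural killer cluster 1 and 1, and the fibroblasts 5 and 0. Of all genes listed, 38.4% to 53.5% were lower in the macrophage and monocyte tables, 41.3% and 61.9% in those of neutrophils, 70.8% and 46.3% in T cell clusters 7 and 10, 49.1% in natural killer cells and 56.7% in fibroblasts. The higher listing in neutrophils (Anxa7) and 1 of those in T cells (Anxa6) passed the detection limit in the library with the higher share alone.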
